A study of Mus musculus with 12 samples.

Results

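The interleukins and interleukin receptors on the array were taken as the probe sets that carry 1 gene symbol in the platform annotation, where that symbol begins with Il followed directly by a digit. Il10rb, Il3ra, Il5ra and Il6 were left out by the rule. This gave 96 of 45141 probe sets, which stand for 66 of the 17097 genes with such an annotation. A filter on dim probe sets kept 69 of the 96 probe sets and 49 of the 66 genes, and these 49 genes entered the tests. The rule goes by the symbol, so it also takes in Il4i1, an amino acid oxidase named for its induction by IL-4 and neither an interleukin nor a receptor.

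Expression was measured on 12 Affymetrix arrays, with 3 arrays in each of 4 groups of mouse cells. The Ts1Cje + Trib1 WT and B6 + Trib1 WT groups, called Ts1Cje Trib1 and B6 Trib1 here, are acute myeloid leukaemia (AML) lines that express Trib1, a pseudokinase known to drive loss of the C/EBP alpha protein in leukaemia. The Ts1Cje and B6 groups are hematopoietic cells with no Trib1 named in their labels. Ts1Cje is a mouse model that is trisomic for part of chromosome 16, and B6 is the wild type. All 4 groups were grown in 10% fetal bovine serum with 5 ng/ml IL-3, received no treatment, and were profiled from 100 ng of total RNA. Every comparison of a Trib1 line with hematopoietic cells is therefore also one of leukaemic with non-leukaemic cells, and these cannot be told apart. The labels do not say how Trib1 was introduced, whether a line is 1 clone, the age of the animals, or whether the 3 arrays of a group came from separate cultures or animals, so the p-values cover the spread among these arrays alone, and that spread may be technical.

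Interleukins are secreted proteins with which blood cells signal to one another, and a cell answers one only if it carries the chains of its receptor. Many receptors pair a chain that binds 1 ligand with a signalling chain shared by several ligands, such as gp130 of the IL-6 family, and most act through JAK kinases and STAT transcription factors. The IL-1 and IL-18 receptors instead act through MyD88 and NF-kB, and are held in check by decoy receptors, binding proteins and a receptor antagonist. Among myeloid cells, monocytes and neutrophils are known for IL-1 and its inhibitors, and mast cells and basophils for IL-4 and IL-13.

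The levels below are intensities on a linear scale, and differences are of log2(intensity + 15), so that a fold is that of intensity + 15 and understates the change of dim genes. Array medians lay between 30.5 and 32.0, and within-group correlations across genes between 0.997 and 0.999. The third Ts1Cje Trib1 array, with a median of 31.6, the third B6 Trib1 array, with 30.8, and the first Ts1Cje array, with 30.5, stood apart from the other arrays of their groups. The kept Trib1 probe set had intensities of 41.8, 47.3 and 48.5 in Ts1Cje Trib1 lines against 70.5, 69.5 and 76.0 in Ts1Cje cells. In B6 Trib1 lines it had 47.0, 48.7 and 43.0, against 78.5, 82.1 and 68.2 in B6 cells. It was thus lower in both lines labelled as expressing Trib1, but whether its probes match the introduced sequence is not known here, so it does not check those labels. RNA was taken from bulk cells, where fewer cells of a type and less RNA per cell cannot be told apart.

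Markers of several cell types moved with the groups. Of 13 measured mast cell and basophil markers, 13 were higher in B6 Trib1 lines than in B6 cells and 12 were higher in Ts1Cje Trib1 lines than in Ts1Cje cells. Their summed intensity lay between 28410 and 29570 in Ts1Cje Trib1 lines, 25470 and 25790 in B6 Trib1 lines, 5289 and 5605 in Ts1Cje cells, and 3675 and 3713 in B6 cells. Of 12 B-cell markers, 11 were lower in each line than in its hematopoietic cells, and their sum lay between 423 and 446 in Ts1Cje Trib1 lines, 408 and 449 in B6 Trib1 lines, 3127 and 3247 in Ts1Cje cells, and 7555 and 7798 in B6 cells. The sum of 18 monocyte and macrophage markers lay between 5968 and 6044 in Ts1Cje Trib1 lines, 9762 and 10110 in B6 Trib1 lines, 24800 and 25250 in Ts1Cje cells, and 16890 and 17210 in B6 cells. The sum of 12 neutrophil markers lay between 14900 and 15610 in Ts1Cje Trib1 lines, 23920 and 24380 in B6 Trib1 lines, 41060 and 41520 in Ts1Cje cells, and 27440 and 27450 in B6 cells. Among these 4 lists, the number of measured markers with a group mean under 50 ran from 0 for neutrophils in both kinds of hematopoietic cells to 10 of 12 for B cells in both lines. No marker was listed at 0 on any array. How far these cell types account for the interleukin results was not tested.

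For the 49 tested genes, the highest group mean lay between 24.2 and 1094. At a division set at 50 after the values were seen, 30 genes reached that mean in at least 1 group, and the other 19 stayed under it in all 4 groups. The 17 genes with no kept probe set had highest group means between 9.18 and 23.3. They included the T-cell cytokines Il2 and Il21, the alarmin Il33, and Il3 itself, the cytokine supplied in the medium.

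In Trib1 lines, most interleukin receptor genes that moved were lower than in hematopoietic cells, with the gp130 chain Il6st furthest down in both backgrounds, and a smaller set was higher, led by the pair of IL-18 receptor chains. Between B6 Trib1 lines and B6 cells, 36 of the 49 genes passed limma's test at an adjusted p under 0.05, 15 higher and 21 lower, where 65.2% of all 12560 genes passed, 34.1% higher and 31.1% lower. Between Ts1Cje Trib1 lines and Ts1Cje cells, 27 of 49 passed, 8 higher and 19 lower, where 60.8% of all genes passed, 34.1% higher and 26.8% lower. The share of the genes that passed was thus near that of all genes in both comparisons. The median log2 difference over the 49 genes was 0.04 against 0.03 over all genes for the B6 background, and -0.03 against 0.02 for the Ts1Cje background. Of the 30 brighter genes, 8 were higher and 18 lower in B6 Trib1 lines, where 31.5% and 37.5% of the 9543 genes of that brightness passed in these directions. In Ts1Cje Trib1 lines 8 of the 30 were higher and 17 lower, where 40.8% and 31.7% of such genes passed.

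The calls lower in both backgrounds were 19 of the 49 genes (38.8%), which is 19 of the 21 lower in B6 Trib1 lines and 19 of the 19 lower in Ts1Cje Trib1 lines. Over all 12560 genes, 2471 (19.7%) were lower in both, 63.2% of those lower in B6 Trib1 lines and 73.5% of those lower in Ts1Cje Trib1 lines. The interleukin calls higher in both were 6 of the 49 genes (12.2%), where 2438 of all 12560 genes (19.4%) were. These were 6 of 15 and 6 of 8 of the higher calls, where 56.9% and 57.0% of all genes called higher were higher in both. None of the 49 genes passed in opposite directions, as 4.85% of all genes did. The 2 comparisons share no array.

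**Figure D1:**
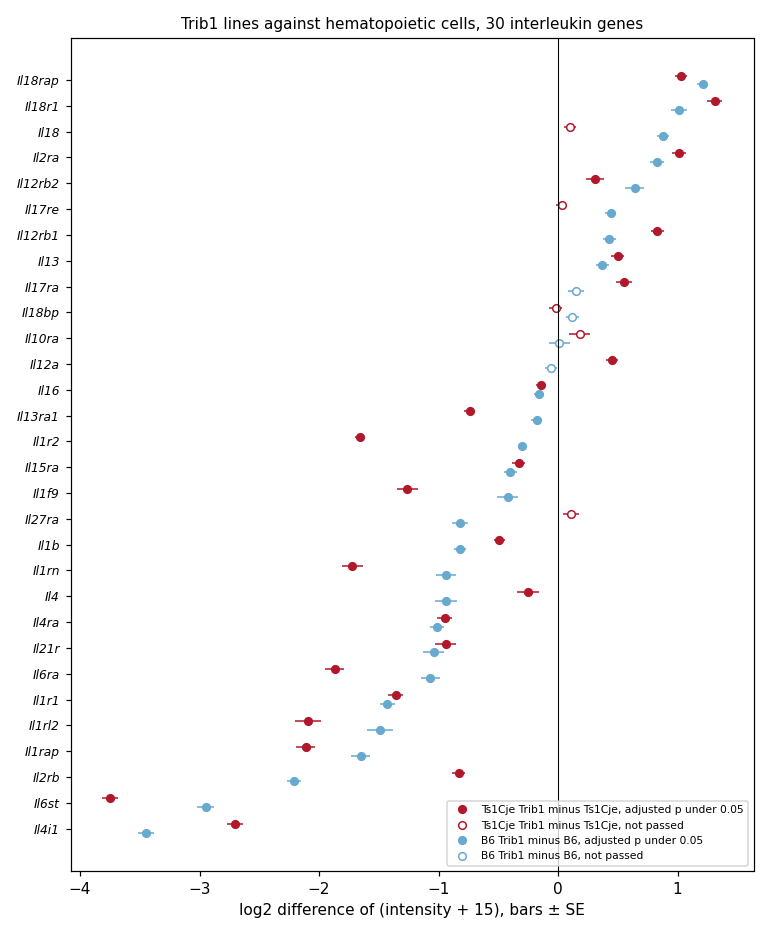
The log2 difference of intensity + 15 (horizontal axis, bars ± SE, n = 3 arrays a group) is shown for the 30 interleukin genes with a mean of at least 50 in a group, for Ts1Cje Trib1 minus Ts1Cje (red) and B6 Trib1 minus B6 (blue), filled where the adjusted p was under 0.05. Il6st and Il4i1 lie furthest to the left in both, and Il18rap and Il18r1 furthest to the right.

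Il6st encodes gp130, the signalling chain shared by the receptors for IL-6, IL-11, LIF and oncostatin M. Its intensities were 43.6, 54.9 and 43.4 in Ts1Cje Trib1 lines, against 836, 786 and 837 in Ts1Cje cells. In B6 Trib1 lines they were 91.4, 77.2 and 86.6, against 784, 739 and 746 in B6 cells. All 6 arrays of the lines lay far under all 6 arrays of the hematopoietic cells. The log2 difference was -3.75 ± 0.07 (SE, adjusted p = 2.01e-14) in the Ts1Cje background, a 13.4-fold lower level, and -2.95 ± 0.07 (SE, adjusted p = 4.47e-13) in the B6 background, 7.72-fold lower.

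Il6ra, the chain that binds IL-6 itself, was also lower in the lines. It had 33.6, 27.5 and 31.1 in Ts1Cje Trib1 lines, against 162, 164 and 133 in Ts1Cje cells. It had 47.0, 53.6 and 51.4 in B6 Trib1 lines, against 136, 116 and 118 in B6 cells. The groups did not overlap in either background, with log2 differences of -1.87 ± 0.079 (SE, adjusted p = 9.14e-11) and -1.07 ± 0.079 (SE, adjusted p = 5.46e-08) for the Ts1Cje and B6 backgrounds. In another probe set of this gene the difference was -0.31 in the Ts1Cje background and 0.02 in the B6 background, the second not past the test. Il27ra, the IL-27 receptor chain that pairs with gp130, did not pass in the Ts1Cje background, at 0.11 ± 0.065 (SE, adjusted p = 0.153), and fell in the B6 background, with a log2 difference of -0.82 ± 0.065 (SE, adjusted p = 1.16e-07).

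Among the related cytokines and receptors without an Il symbol, 7 of 12 measured genes were higher and 4 lower in B6 Trib1 lines, and 4 were higher and 5 lower in Ts1Cje Trib1 lines. Lif, whose receptor signals through gp130, had 2005, 2032 and 1924 in Ts1Cje Trib1 lines against 106, 94.2 and 107 in Ts1Cje cells, and its log2 difference was 4.09 in that background and 4.09 in the B6 background (adjusted p = 4.73e-16 and 6.18e-16). Lifr, the LIF-binding chain, went the other way, with log2 differences of -1.94 and -2.09 (adjusted p = 4.48e-12 and 3.97e-12). The ligand Lif was therefore higher while both chains of its receptor were lower.

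The IL-1 and IL-36 receptor chains were lower in both lines. Il1rap, the accessory chain that the receptors for IL-1, IL-33 and IL-36 share, had 61.1, 60.4 and 77.1 in Ts1Cje Trib1 lines, against 338, 322 and 340.1 in Ts1Cje cells. In B6 Trib1 lines it had 61.1, 76.6 and 74.3, against 253, 244 and 263 in B6 cells. The groups were well apart in both backgrounds, by -2.11 ± 0.08 (SE, adjusted p = 3.05e-11) in the Ts1Cje background and -1.65 ± 0.08 (SE, adjusted p = 6.92e-10) in the B6 background.

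Il1r1, the signalling receptor of IL-1, had 64.3, 57.2 and 63.0 in Ts1Cje Trib1 lines, against 196, 164 and 185 in Ts1Cje cells. It had 116, 103 and 103 in B6 Trib1 lines, against 318, 313 and 314 in B6 cells. The order Ts1Cje Trib1, B6 Trib1, Ts1Cje, B6, from low to high, held with no overlap between neighbouring groups. The log2 differences were -1.36 ± 0.062 (SE, adjusted p = 2.22e-10) for the Ts1Cje background and -1.43 ± 0.062 (SE, adjusted p = 2.23e-10) for the B6 background.

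Il1rl2, the receptor for the IL-36 cytokines, had 40.2, 40.5 and 37.5 in Ts1Cje Trib1 lines, against 249.9, 212 and 193 in Ts1Cje cells. It had 48.0, 47.2 and 63.9 in B6 Trib1 lines, against 150.5, 183 and 193 in B6 cells. The log2 differences were -2.09 ± 0.107 (SE, adjusted p = 7.58e-10) and -1.49 ± 0.107 (SE, adjusted p = 4.43e-08) for the Ts1Cje and B6 backgrounds, with no overlap. The gene's other kept probe set, whose group means lay between 21.3 and 29.5, gave -0.29 in the Ts1Cje background and 0.07 in the B6 background, the second not past the test (adjusted p = 0.24).

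The inhibitors of IL-1 fell as well. Il1r2, a decoy receptor that binds IL-1 without signalling, had 336, 340.5 and 331 in Ts1Cje Trib1 lines, against 1106, 1062 and 1112 in Ts1Cje cells, a log2 difference of -1.66 ± 0.038 (SE, adjusted p = 1.88e-13). In B6 Trib1 lines it had 495, 516 and 529.8, against 619, 656 and 636 in B6 cells, a difference of -0.30 ± 0.038 (SE, adjusted p = 1.48e-05). The groups did not overlap, and the gap was wider in the Ts1Cje background.

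Il1rn, the secreted antagonist that occupies the IL-1 receptor, had 117, 119 and 88.7 in Ts1Cje Trib1 lines, against 398, 370.0 and 395 in Ts1Cje cells. It had 143, 169.5 and 163 in B6 Trib1 lines, against 318, 317 and 316 in B6 cells. Again the lines lay under the hematopoietic cells on every array, by -1.72 ± 0.084 (SE, adjusted p = 4.88e-10) and -0.94 ± 0.084 (SE, adjusted p = 4.41e-07) for the Ts1Cje and B6 backgrounds.

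Of the ligands, Il1b and Il1f9 fell in both backgrounds, Il1f6 and Il1f8 rose in the B6 background, and Il1a did not pass. Il1b, the IL-1 secreted by activated myeloid cells, had 124, 122 and 125 in Ts1Cje Trib1 lines, against 194, 175 and 169 in Ts1Cje cells, a log2 difference of -0.49 ± 0.048 (SE, adjusted p = 7.78e-07). It differed by -0.82 ± 0.048 (SE, adjusted p = 4.63e-09) in the B6 background. Il1f9, which encodes IL-36 gamma, a ligand of Il1rl2, had log2 differences of -1.26 ± 0.087 (SE, adjusted p = 2.05e-08) in the Ts1Cje background and -0.42 ± 0.087 (SE, adjusted p = 0.000881) in the B6 background. Il1f6 and Il1f8, which encode IL-36 alpha and IL-36 beta, the other ligands of Il1rl2, had smaller differences of the opposite sign in the B6 background, at 0.17 ± 0.064 (SE, adjusted p = 0.0298) and 0.23 ± 0.076 (SE, adjusted p = 0.0159). Neither passed in the Ts1Cje background (adjusted p = 0.843 and 0.982). Both were dim, with B6 Trib1 means of 29.5 and 49.4 against B6 means of 24.4 and 39.8. The Il1f6 call was lost without the first or second B6 Trib1 array or the first or second B6 array, with values between 0.15 and 0.17 and an adjusted p of up to 0.0989. That of Il1f8 was lost without the second B6 Trib1 array or the last of the B6 arrays, both at 0.18 (adjusted p = 0.0729 and 0.0776). Il1f5, the IL-36 receptor antagonist, rose in the B6 background, by 0.21 ± 0.049 (SE, adjusted p = 0.00264), and did not pass in the Ts1Cje background (adjusted p = 0.647). Il1a, the other IL-1, stayed between 25.5 and 33.8 on all 12 arrays, and its log2 differences of -0.11 and -0.01 did not pass (adjusted p = 0.062 and 0.809). The first of these passed under 6 of 26 other settings (lowest adjusted p = 0.032).

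The IL-18 receptor chains, which belong to the same family, went the other way. Il18rap, its accessory chain, had 601, 618 and 563 in Ts1Cje Trib1 lines, against 304, 276 and 272 in Ts1Cje cells. It had 502, 490.3 and 495 in B6 Trib1 lines, against 202, 209 and 205 in B6 cells. Every array of the lines lay above every array of the hematopoietic cells, with log2 differences of 1.03 ± 0.047 (SE, adjusted p = 2.18e-10) and 1.21 ± 0.047 (SE, adjusted p = 6.79e-11) for the Ts1Cje and B6 backgrounds.

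Il18r1, the chain that binds IL-18, had 237, 243 and 251 in Ts1Cje Trib1 lines, against 99.9, 88.3 and 79.6 in Ts1Cje cells. It had 210.0, 201 and 225 in B6 Trib1 lines, against 92.7, 97.1 and 104 in B6 cells. The lines were again higher on every array, 2.49-fold in the Ts1Cje background and 2.01-fold in the B6 background (adjusted p = 5.92e-10 and 1.52e-08).

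The ligand Il18 rose in the B6 background, with 83.0, 84.1 and 94.3 in B6 Trib1 lines against 37.1, 41.9 and 41.9 in B6 cells, a log2 difference of 0.88 ± 0.051 (SE, adjusted p = 4.40e-09). In Ts1Cje Trib1 lines it had 47.3, 47.8 and 49.7, against 41.9, 46.2 and 43.8 in Ts1Cje cells, and the difference of 0.10 did not pass (adjusted p = 0.101). Il18bp, the secreted protein that binds and blocks IL-18, did not pass in either background, at -0.02 and 0.12 for Ts1Cje and B6. The second passed without the third B6 Trib1 array, at 0.17 (adjusted p = 0.0143).

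**Figure D2:**
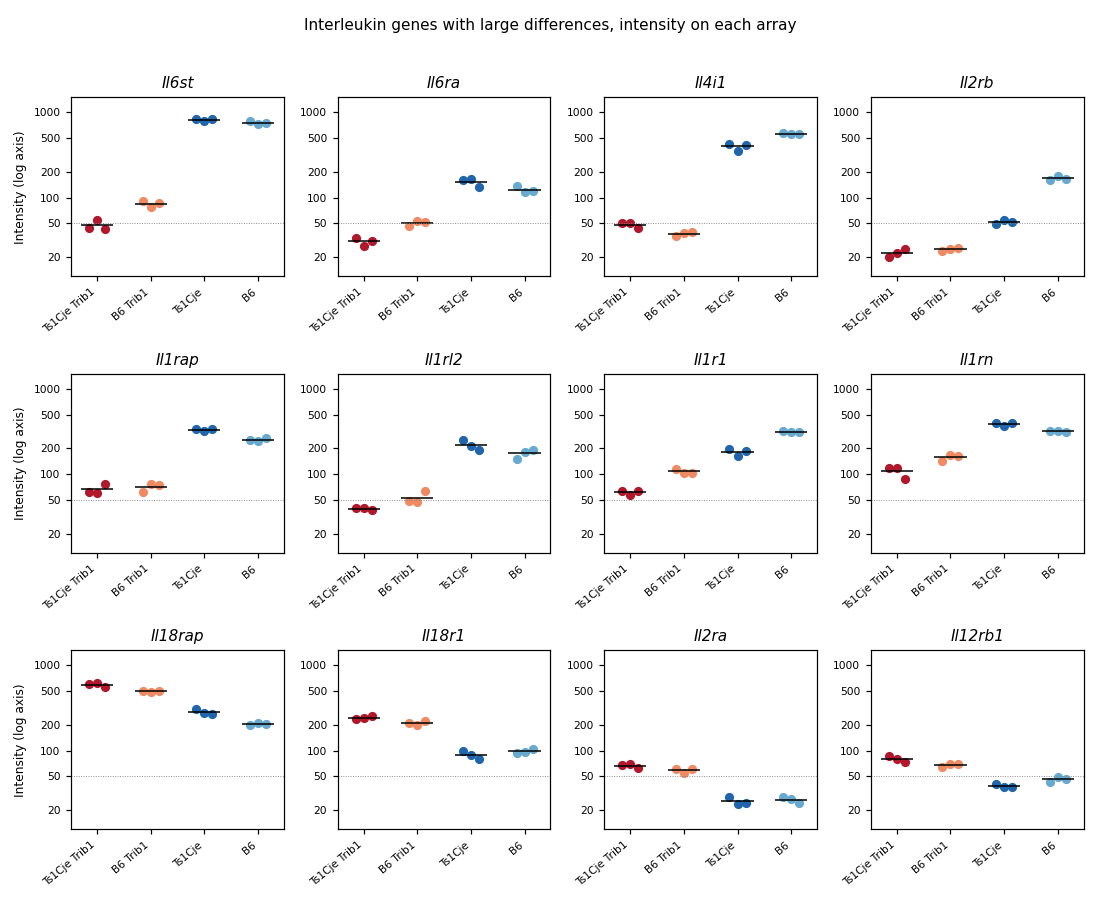
Intensity on each array (points, log axis) and the mean of the 3 arrays (line) in the 4 groups for 12 interleukin genes, with a dotted line at 50. The first 8 genes are lower in both Trib1 lines and the last 4 are higher, and Il2rb also differs between Ts1Cje and B6 cells, with means of 52.1 and 169.

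The receptor genes Il1r2, Il1r1, Il1rl2, Il18r1 and Il18rap lie in 1 stretch of chromosome 1. In the RefSeq order of protein-coding genes on GRCm38.p6, Il1r2, Il1r1 and Il1rl2 are direct neighbours, and Il18r1 and Il18rap are direct neighbours further along, all on the + strand. The first 3 were lower in both lines and the other 2 were higher in both. Their promoters, from 250 bases before to 50 bases after the listed start, are shown because direct neighbours among them had the same call in both comparisons. Il4ra and Il21r on chromosome 7 also met this rule. Their promoters are not printed and held neither motif searched for below. Both strands were searched for the STAT motif TTCNNNGAA, which reads the same on either strand, and the GATA motif AGATAA. Capitals mark matches to the STAT motif. The RefSeq table, from which the sequences come, lists 2 starts for Il1r1, of which the first is given, and 3 for Il18r1, of which the third is given because it holds matches.
Il1r2, chr1:40085843-40086142, + strand: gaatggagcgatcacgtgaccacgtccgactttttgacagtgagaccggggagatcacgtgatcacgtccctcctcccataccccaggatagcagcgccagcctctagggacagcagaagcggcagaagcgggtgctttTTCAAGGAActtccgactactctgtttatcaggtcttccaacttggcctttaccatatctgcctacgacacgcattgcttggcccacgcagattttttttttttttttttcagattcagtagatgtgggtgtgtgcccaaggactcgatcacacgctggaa
Il1r1, chr1:40224830-40225129, + strand: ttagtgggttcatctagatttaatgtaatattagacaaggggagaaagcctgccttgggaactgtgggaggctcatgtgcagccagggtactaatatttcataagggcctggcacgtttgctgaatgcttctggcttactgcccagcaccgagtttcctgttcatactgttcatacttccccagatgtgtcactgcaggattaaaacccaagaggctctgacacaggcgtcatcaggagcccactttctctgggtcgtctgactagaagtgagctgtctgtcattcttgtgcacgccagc
Il1rl2, chr1:40324339-40324638, + strand: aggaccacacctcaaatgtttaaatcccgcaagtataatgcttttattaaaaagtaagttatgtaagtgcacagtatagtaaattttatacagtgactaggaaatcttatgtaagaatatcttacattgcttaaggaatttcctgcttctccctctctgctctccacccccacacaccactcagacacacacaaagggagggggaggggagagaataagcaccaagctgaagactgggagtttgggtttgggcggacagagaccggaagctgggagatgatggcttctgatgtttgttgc
Il18r1, chr1:40465756-40466055, + strand: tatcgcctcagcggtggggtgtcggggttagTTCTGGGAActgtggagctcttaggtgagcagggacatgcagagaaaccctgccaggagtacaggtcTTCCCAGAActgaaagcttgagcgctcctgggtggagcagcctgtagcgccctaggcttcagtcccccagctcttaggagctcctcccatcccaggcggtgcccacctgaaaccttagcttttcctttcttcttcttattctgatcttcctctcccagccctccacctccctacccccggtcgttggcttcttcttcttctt
Il18rap, chr1:40515112-40515411, + strand: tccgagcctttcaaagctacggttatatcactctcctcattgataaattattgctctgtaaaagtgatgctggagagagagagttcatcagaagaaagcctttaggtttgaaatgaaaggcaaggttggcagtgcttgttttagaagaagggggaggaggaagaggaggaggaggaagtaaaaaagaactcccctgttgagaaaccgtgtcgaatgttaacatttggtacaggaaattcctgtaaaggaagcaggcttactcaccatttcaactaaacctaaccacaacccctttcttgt

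The printed Il18r1 promoter held 2 STAT matches, from bases 32 and 99 of the printed sequence, and that of Il1r2 held 1, from base 140. The promoters of Il1r1, Il1rl2 and Il18rap and the other Il18r1 starts held none, and no promoter of these 5 genes held the GATA motif. The STAT motif stood in 8.3% of 32851 promoters of 27025 genes, and in 8 of the 64 promoters of the 51 interleukin genes found in the table, or 12.5%. The GATA motif stood in 11.2% of all promoters and 12.5% of those of the interleukin genes. Both the lower genes of the cluster and the higher ones thus included 1 gene with a STAT match.

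**Figure D3:**
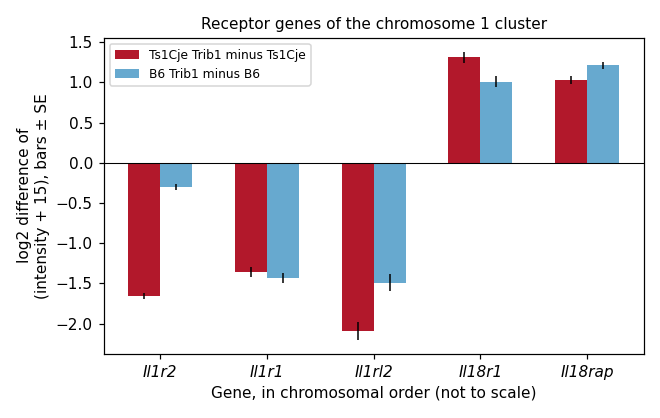
The log2 difference of intensity + 15 (bars, with SE, n = 3 arrays a group) for 5 receptor genes in their order along chromosome 1, for Ts1Cje Trib1 minus Ts1Cje (red) and B6 Trib1 minus B6 (blue). Il1r2, Il1r1 and Il1rl2 lie under 0 and Il18r1 and Il18rap above 0 in both.

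Of 17 adjacent pairs of interleukin genes in this order, 4 had the same call at both genes in both comparisons: Il1r2 with Il1r1, Il1r1 with Il1rl2, Il18r1 with Il18rap, and Il4ra with Il21r. In 4 pairs the genes had opposite calls, Il4 with Il13 and Il2ra with Il15ra in both comparisons, and Il1f8 with Il1f9 and Il1f9 with Il1f6 in the B6 background. The other 9 pairs held a gene that did not pass or was not tested in at least 1 comparison. Il4ra and Il21r, neighbours on chromosome 7 that encode the receptor chains for IL-4 with IL-13 and for IL-21, were both lower. Il4ra had 267, 262 and 253 in Ts1Cje Trib1 lines, against 524, 474 and 564 in Ts1Cje cells, and its log2 difference was -0.95 ± 0.059 (SE, adjusted p = 5.86e-09) in that background and -1.01 ± 0.059 (SE, adjusted p = 4.81e-09) in the B6 background. Il21r differed by -0.94 ± 0.087 (SE, adjusted p = 4.16e-07) in the Ts1Cje background and -1.04 ± 0.087 (SE, adjusted p = 2.10e-07) in the B6 background. Il13ra1, the IL-13 chain that pairs with Il4ra, was lower, with log2 differences of -0.74 and -0.18 in the Ts1Cje and B6 backgrounds (adjusted p = 7.52e-09 and 0.0046).

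Il4 and Il13, the type 2 cytokines that are neighbours on chromosome 11, went in opposite directions. Il13 had 69.4, 67.2 and 63.4 in Ts1Cje Trib1 lines, against 39.4, 41.9 and 46.7 in Ts1Cje cells, and 51.5, 59.4 and 51.3 in B6 Trib1 lines, against 38.6, 39.4 and 37.3 in B6 cells. The lines were higher on every array, by 0.50 ± 0.056 (SE, adjusted p = 2.73e-06) and 0.37 ± 0.056 (SE, adjusted p = 7.34e-05) for Ts1Cje and B6. Il4 had 88.2, 94.1 and 117 in Ts1Cje Trib1 lines, against 132, 111 and 118 in Ts1Cje cells, where the groups overlapped and the difference was -0.25 ± 0.092 (SE, adjusted p = 0.0329). In B6 Trib1 lines it had 87.3, 85.6 and 97.8, against 167, 194 and 200.5 in B6 cells, with no overlap and a difference of -0.94 ± 0.092 (SE, adjusted p = 1.08e-06). The Il4 call in the Ts1Cje background was lost without the first Ts1Cje array, at -0.18 (adjusted p = 0.12), and without the first Ts1Cje Trib1 array, at -0.17 (adjusted p = 0.147).

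The chains of the IL-2 and IL-15 receptors also split. Il2ra, the chain that gives the IL-2 receptor its high affinity, had 67.8, 69.1 and 62.8 in Ts1Cje Trib1 lines, against 28.4, 23.9 and 24.5 in Ts1Cje cells. It had 60.7, 53.9 and 61.5 in B6 Trib1 lines, against 28.4, 26.8 and 24.3 in B6 cells. It was higher on every array of the lines, by 1.01 ± 0.057 (SE, adjusted p = 2.43e-09) and 0.83 ± 0.057 (SE, adjusted p = 2.96e-08) for the Ts1Cje and B6 backgrounds. Its neighbour on chromosome 2, Il15ra, the chain that presents IL-15, fell, with log2 differences of -0.33 ± 0.055 (SE, adjusted p = 0.000125) and -0.40 ± 0.055 (SE, adjusted p = 3.26e-05). The gene's other kept probe set gave -0.14 in the Ts1Cje background and -0.04 in the B6 background, the second not past the test (adjusted p = 0.398).

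Il2rb, the signalling chain that IL-2 and IL-15 share, had 20.4, 22.7 and 24.9 in Ts1Cje Trib1 lines, against 49.8, 55.3 and 51.2 in Ts1Cje cells. It had 23.5, 24.7 and 26.0 in B6 Trib1 lines, against 161, 181 and 164 in B6 cells. Both lines stood near the filter, Ts1Cje cells were higher on every array, and B6 cells were higher again. The log2 difference was -0.83 ± 0.055 (SE, adjusted p = 1.23e-08) in the Ts1Cje background and -2.21 ± 0.055 (SE, adjusted p = 7.54e-13) in the B6 background. Il2rb is a known gene of T and NK cells. Of 17 measured T-cell and NK-cell markers, 11 were lower and 3 higher in B6 Trib1 lines and 7 lower and 6 higher in Ts1Cje Trib1 lines. Their summed intensity was higher in the lines, unlike Il2rb. It lay between 10420 and 11000 in Ts1Cje Trib1 lines, 9219 and 9472 in B6 Trib1 lines, 1603 and 1705 in Ts1Cje cells, and 2198 and 2324 in B6 cells. The markers with a group mean under 50 were 12 in each line, 9 in Ts1Cje cells and 6 in B6 cells. The part of these cells in the Il2rb result was not tested.

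Il12rb1 and Il12rb2, the chains of the IL-12 receptor, were higher in both lines. Il12rb1 had 87.5, 79.1 and 74.1 in Ts1Cje Trib1 lines, against 40.8, 37.3 and 37.0 in Ts1Cje cells, a log2 difference of 0.83 ± 0.056 (SE, adjusted p = 1.37e-08), and it differed by 0.43 ± 0.056 (SE, adjusted p = 1.59e-05) in the B6 background. Il12rb2 rose by 0.31 ± 0.078 (SE, adjusted p = 0.00372) in the Ts1Cje background, where 1 array of each group overlapped, and by 0.64 ± 0.078 (SE, adjusted p = 9.83e-06) in the B6 background. Il12a, a subunit of IL-12, rose in the Ts1Cje background, by 0.45 ± 0.048 (SE, adjusted p = 2.06e-06), and did not pass in the B6 background, at -0.06 ± 0.048 (SE, adjusted p = 0.278).

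Il4i1 had the largest fall of any of these genes in the B6 background. It had 35.1, 38.7 and 39.5 in B6 Trib1 lines, against 577, 556 and 552 in B6 cells, 10.9-fold lower (adjusted p = 6.89e-14). In Ts1Cje Trib1 lines it had 51.0, 50.3 and 43.9, against 428, 352 and 417 in Ts1Cje cells, 6.51-fold lower (adjusted p = 3.97e-13). The highest array of the lines was at 51.0 and the lowest of the hematopoietic cells at 352.

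Of the remaining brighter genes, Il17ra, the common chain of the IL-17 receptors, rose by 0.55 ± 0.067 (SE, adjusted p = 7.17e-06) in the Ts1Cje background and did not pass in the B6 background, at 0.15 ± 0.067 (SE, adjusted p = 0.0639), though it passed under 8 of 26 other settings (lowest adjusted p = 0.00807). Il17re, the IL-17C receptor chain, rose by 0.44 ± 0.048 (SE, adjusted p = 3.36e-06) in the B6 background and did not pass in the Ts1Cje background, at 0.03 (adjusted p = 0.568). Il16, a chemoattractant that binds CD4, stayed between 283 and 354 on all arrays and was slightly lower, with log2 differences of -0.14 and -0.16 in the Ts1Cje and B6 backgrounds (adjusted p = 0.0104 and 0.0042). The first call was lost with all 3 arrays of distant median left out, at -0.11 (adjusted p = 0.0545). The other kept probe set of Il16 gave -0.06 in the Ts1Cje background, which did not pass (adjusted p = 0.249). It gave -0.23 in the B6 background, which passed (adjusted p = 0.000512). Il10ra, the IL-10-binding chain, ranged from 71.2 to 98.6 and passed no comparison. Without the first Ts1Cje array it passed in Ts1Cje Trib1 minus Ts1Cje, at 0.30 (adjusted p = 0.00122), in Ts1Cje minus B6, at -0.20 (adjusted p = 0.0173), and in the interaction, at 0.29 (adjusted p = 0.0126). Without the third Ts1Cje Trib1 array it passed in Ts1Cje Trib1 minus Ts1Cje, at 0.25 (adjusted p = 0.031).

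The 19 dimmer genes gave 7 higher and 3 lower calls in B6 Trib1 lines against B6 cells, and 0 higher and 2 lower in Ts1Cje Trib1 lines against Ts1Cje cells. Of the 3017 tested genes that stayed under 50, 42.2% and 11.0% passed in these directions in the B6 background, and 12.9% and 11.3% in the Ts1Cje background. Both calls of the Ts1Cje background were also called in the B6 background: the IL-13 decoy receptor Il13ra2, with log2 differences of -0.34 and -0.54, and the IL-20 receptor chain Il20rb, with -0.52 and -0.28.

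Among lists of genes that carry interleukin signals inside the cell, the NF-kB list and the JAK and STAT list gave mostly lower calls. Over all genes, 34.1% were higher and 31.1% lower in B6 Trib1 lines, and 34.1% higher and 26.8% lower in Ts1Cje Trib1 lines. The median log2 differences over all genes were 0.03 and 0.02. Of 10 measured NF-kB genes, 1 was higher and 9 lower in B6 Trib1 lines and 3 higher and 6 lower in Ts1Cje Trib1 lines, with median log2 differences of -0.36 and -0.35. The NF-kB subunit gene Relb had 65.1, 61.3 and 57.1 in Ts1Cje Trib1 lines, against 219.9, 190.0 and 210.2 in Ts1Cje cells, and its log2 difference was -1.54 in that background and -1.62 in the B6 background (adjusted p = 3.34e-11 and 3.62e-11). Of 10 JAK and STAT genes, 0 were higher and 6 lower in B6 Trib1 lines, and 1 was higher and 7 lower in Ts1Cje Trib1 lines. Their median log2 differences were -0.30 and -0.19. Stat3, the factor that gp130 activates, differed by -0.67 and -0.66 for Ts1Cje and B6 (adjusted p = 1.33e-06 and 2.11e-06).

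Of 12 SOCS and other feedback genes, 4 were higher and 4 lower in B6 Trib1 lines and 6 higher and 4 lower in Ts1Cje Trib1 lines. Socs3, the STAT3 target that inhibits gp130, had 110.1, 105 and 99.3 in Ts1Cje Trib1 lines, against 508, 516 and 522 in Ts1Cje cells, and differed by -2.15 in that background and -1.79 in the B6 background (adjusted p = 1.38e-13 and 1.76e-12). Il6st, Il6ra, Stat3 and Socs3 were thus all lower in both lines, Il6ra in 1 of its 2 kept probe sets in the B6 background. Stat3 and Socs3 were named from among the genes of their lists that passed, so they do not stand for those lists. Of 11 genes of IL-1 signalling, 3 were higher and 5 lower in B6 Trib1 lines, and 4 higher and 4 lower in Ts1Cje Trib1 lines. Of the 5 measured inflammasome genes, 3 were higher and 1 lower in B6 Trib1 lines, and 2 higher and 2 lower in Ts1Cje Trib1 lines.

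Between hematopoietic cells of the 2 genotypes, Ts1Cje cells had more of the IL-1 inhibitors Il1r2 and Il1rn and less of the receptor chains Il2rb, Il1r1 and Il27ra. Of the 49 genes, 28 passed, 15 higher and 13 lower in Ts1Cje than in B6 cells, where 52.6% of all genes passed, 23.3% higher and 29.3% lower. Of the 30 brighter genes, 11 were higher and 11 lower, where 24.1% and 36.1% of genes of that brightness passed. The median log2 difference was 0.10 over the 49 genes and 0.01 over all genes. Without the first Ts1Cje array, the count was 39 of 49, with 23 higher and 16 lower. The share of all genes that passed in that fit is not given here, so this count cannot be read as particular to these genes. None of the 49 genes lies in the trisomic segment of Ts1Cje, Il1rap being on chromosome 16 but outside it.

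Il1r2 rose most, with 1106, 1062 and 1112 in Ts1Cje cells against 619, 656 and 636 in B6 cells, a log2 difference of 0.77 ± 0.038 (SE, adjusted p = 5.70e-09). Il1rn rose by 0.28 ± 0.084 (SE, adjusted p = 0.0146), Il1rap by 0.38 ± 0.08 (SE, adjusted p = 0.00156) and Il18rap by 0.44 ± 0.047 (SE, adjusted p = 5.91e-06), each with no overlap between the groups. Monocyte and neutrophil markers were also higher in Ts1Cje cells, in 15 of 18 and 9 of 12 measured genes, and whether they account for these rises was not tested.

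Il2rb was the largest fall, at -1.45 ± 0.055 (SE, adjusted p = 5.03e-10), or 2.74-fold. Il12a had 26.6, 26.0 and 23.1 in Ts1Cje cells, against 54.4, 51.9 and 54.8 in B6 cells, with no overlap and a difference of -0.77 ± 0.048 (SE, adjusted p = 4.14e-08). Il1r1 differed by -0.75 ± 0.062 (SE, adjusted p = 5.84e-07). In Ts1Cje cells the signalling receptor of IL-1 was thus lower, while its accessory chain Il1rap, the decoy and the antagonist were higher. For Il1rap, 2 of its 3 kept probe sets passed, and the other gave 0.25 (adjusted p = 0.0587). Il1b was lower, at -0.28 ± 0.048 (SE, adjusted p = 0.000293). Of the 16 tested genes of the IL-1 family, 9 were higher and 2 lower, where 23.3% and 29.3% of all genes were. Of these higher calls, that of Il1rl2 was lost without the first B6 array, at 0.20 (adjusted p = 0.152), and under several other settings. That of Il1a was lost without the second Ts1Cje array, at 0.14 (adjusted p = 0.0522), and that of Il1f5 without the third B6 array, at 0.13 (adjusted p = 0.0579). Il1f8 and Il18, not among these calls, passed as higher in 4 and 2 other settings, and Il18r1 passed as lower in 3.

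Il27ra had 53.3, 54.4 and 51.7 in Ts1Cje cells, against 108, 104 and 85.8 in B6 cells, again with no overlap, a difference of -0.74 ± 0.065 (SE, adjusted p = 1.03e-06). Il4 differed by -0.58 ± 0.092 (SE, adjusted p = 0.000182) and Il4i1 by -0.48 ± 0.067 (SE, adjusted p = 6.00e-05). T-cell and NK-cell markers were lower in 12 of 17 genes and B-cell markers in 11 of 12, beside these falls, and their part was not tested. Of the 19 dimmer genes, 4 were higher and 2 lower, where 20.7% and 7.66% of genes under 50 passed.

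Between the lines, Ts1Cje Trib1 differed from B6 Trib1 in fewer genes, and the direction for the IL-1 inhibitors Il1r2 and Il1rn was turned round. For Il1rn this held in 2 of its 3 kept probe sets, and the other gave -0.02 (adjusted p = 0.841). Of the 49 genes, 16 passed, 6 higher and 10 lower in Ts1Cje Trib1, where 21.5% of all genes passed, 11.9% higher and 9.63% lower. All 16 were among the 30 brighter genes, where 26.6% of genes of that brightness passed. The median log2 difference was -0.05 over the 49 genes and 0.00 over all genes.

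Il18 had 47.3, 47.8 and 49.7 in Ts1Cje Trib1 lines, against 83.0, 84.1 and 94.3 in B6 Trib1 lines, with no overlap and a log2 difference of -0.69 ± 0.051 (SE, adjusted p = 4.41e-07). Il6st, already low in both lines, was lower still in Ts1Cje Trib1, by -0.69 ± 0.07 (SE, adjusted p = 9.07e-06), in 1 of its 3 kept probe sets. The other 2 gave -0.03 and -0.09 and did not pass (adjusted p = 0.814 and 0.551). Il1r1 differed by -0.68 ± 0.062 (SE, adjusted p = 3.42e-06), Il1r2 by -0.59 ± 0.038 (SE, adjusted p = 1.28e-07), Il1rn by -0.50 ± 0.084 (SE, adjusted p = 0.000728) and Il1f9 by -0.53 ± 0.087 (SE, adjusted p = 0.000582). Each gene named here was, in the probe set that represents it, lower on all 3 Ts1Cje Trib1 arrays than on all 3 B6 Trib1 arrays. The 6 higher genes had small differences: Il4ra at 0.29, Il4i1 at 0.26, Il18rap at 0.25, Il13 at 0.24, Il12rb1 at 0.20 and Il27ra at 0.20. The Il27ra call rested on an adjusted p of 0.0454 and was lost under 12 of 26 other settings, with an adjusted p of up to 0.235. The Il4i1 call was lost without the first B6 Trib1 array, at 0.23 (adjusted p = 0.0617), or without the first or the second Ts1Cje Trib1 array, at 0.23 and 0.24 (adjusted p = 0.0557 and 0.0519). The Il12rb1 call was lost without the first B6 Trib1 array, at 0.17 (adjusted p = 0.0842), or without the first Ts1Cje Trib1 array, at 0.15 (adjusted p = 0.0852). Neutrophil and monocyte markers were lower in 11 of 12 and 13 of 18 genes in Ts1Cje Trib1, and their part was not tested.

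The genotype difference itself differed between lines and hematopoietic cells for many of these genes. The test of that difference is the interaction, the Ts1Cje Trib1 minus B6 Trib1 difference less the Ts1Cje minus B6 difference. It passed for 26 of the 49 genes, 11 higher and 15 lower, where 48.6% of all genes passed, 28.4% higher and 20.2% lower, and its median was -0.09 over the 49 genes and 0.01 over all genes. The genes called in opposite directions in lines and cells were 9 of the 49, or 18.4%, where 10.0% of all genes were. Of these, 6 were higher in Ts1Cje than in B6 cells and lower in Ts1Cje Trib1 than in B6 Trib1 lines, namely Il13ra1, Il17re, Il1f9, Il1r2, Il1rn and Il6ra. The other 3 were lower in cells and higher in lines, namely Il12rb1, Il27ra and Il4i1. Each of these 3 calls in the lines was lost under some of the other settings, as given above. The call of Il17re in the cells was lost without any 1 of 9 arrays (Ts1Cje Trib1 array 1 or 2, B6 Trib1 array 2 or 3, Ts1Cje array 2 or 3, or any of the 3 B6 arrays), with values between 0.08 and 0.14 and an adjusted p of up to 0.197, and that of Il13ra1 in the cells was lost with the mean of its probe sets, at 0.11 (adjusted p = 0.0503). Of the 4 kept probe sets of Il13ra1, 1 passed in the cells and 2 passed in the lines. Of the 3 kept probe sets of Il1rn, 3 passed in the cells and 2 in the lines. In the lines, the other kept probe set of Il6ra gave -0.05 and did not pass (adjusted p = 0.667). The Il17re call in the lines was lost without _x_at and _s_at probe sets, at -0.17 (adjusted p = 0.085). Il18rap and Il4ra were higher in both lines and cells, and Il12a and Il1r1 lower in both.

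Il1r2 shows the turn most clearly, at -0.59 in the lines and 0.77 in the cells, an interaction of -1.36 ± 0.054 (SE, adjusted p = 5.89e-10). Il2rb gave the largest positive interaction, 1.37 ± 0.078 (SE, adjusted p = 1.66e-08), with a fall in Ts1Cje cells and a difference of -0.08 that did not pass in the lines (adjusted p = 0.367), where the gene was near the filter in both. Il1r1 differed by -0.68 in the lines and -0.75 in the cells, and its interaction of 0.07 ± 0.088 (SE, adjusted p = 0.517) did not pass.

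**Figure D4:**
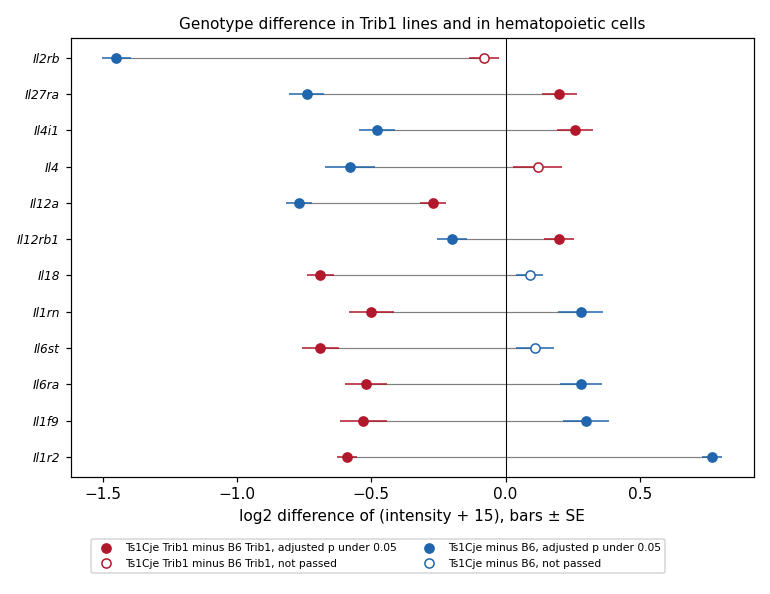
The genotype difference in log2(intensity + 15) (horizontal axis, bars ± SE, n = 3 arrays a group) in Trib1 lines (red, Ts1Cje Trib1 minus B6 Trib1) and in hematopoietic cells (blue, Ts1Cje minus B6) for the 12 genes with the largest interactions, 6 in each direction. Il1r2 stands furthest above 0 in the cells and at -0.59 in the lines, and Il12a is the 1 gene with both points on the same side and both passing.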

How the data were processed

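The deposited values were linear intensities, 1 per probe set and array, for 12 arrays. The submitters' processing notes name MAS5. That method needs mismatch probes, and these arrays carry perfect-match probes alone, which leaves their summary method and scaling unsettled, and no further scaling was applied. Gene names came from the platform annotation, and for 66 of 66 interleukin genes the Entrez identifier was found in the RefSeq gene table of GRCm38.p6, which gave chromosomes, neighbours and promoters. No array column was left unused.

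Probe sets above their array's 40th percentile in at least 3 of 12 arrays were kept, each gene was represented by its kept probe set with the highest mean, and log2(intensity + 15) was fitted with 1 mean per group in limma 3.58.1 (R 4.3.3), tested on simulated data. Tests were two-sided, with Benjamini-Hochberg adjustment over all 12560 genes in each of 5 contrasts. Passing meant an adjusted p under 0.05, whatever the fold. Genes named were the 12 largest rises and falls per pairwise contrast among those that passed with no overlap between groups, the 6 largest interactions in each direction, and a set list of well-known receptors and ligands, 37 genes in all, of which the text gives a subset. Genes of the signalling lists were named only among those that passed, by smallest adjusted p. The members, lists and rules were chosen with earlier results of these data known. Il20rb was named as 1 of 2 calls, and Il1f6 as an IL-36 ligand, after their values were seen.

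As alternatives, arrays were left out, the replicate number was made a block, each fit was limited to the groups it compares, and the variance was moderated robustly with a trend. Values were quantile-normalized or median-centred, over the probe sets with a single gene symbol or over all probe sets, with an offset of 1 or a floor at 15. Genes were taken unfiltered, filtered at the 60th percentile, averaged over their probe sets, or read without _x_at and _s_at probe sets. Median centring over all probe sets and leaving out together 2 or all 3 of the arrays with a median apart were chosen after seeing the data. The number of arrays limits the precision.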

Additional observations from a re-analysis of the deposited data

Results flagged for a closer look

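In 12 genes, the difference between Ts1Cje and B6 was not the same in Trib1 lines as in hematopoietic cells by the test of the difference itself, limma's interaction over all 12 arrays with Benjamini-Hochberg adjustment over 12560 genes. They are the 6 largest in each direction among the 26 interleukin genes that passed, where 48.6% of all genes passed. In log2 units, the positive interactions were 1.37 for Il2rb, 0.94 for Il27ra, 0.75 for Il4i1, 0.69 for Il4, 0.51 for Il12a and 0.40 for Il12rb1. The negative ones were -1.36 for Il1r2, -0.83 for Il1f9, -0.80 for Il6st, -0.80 for Il6ra, -0.78 for Il18 and -0.78 for Il1rn. The adjusted p was smallest for Il1r2 (5.89e-10) and largest for Il12rb1 (0.00105). These 12 calls held under every alternative run.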

How the results depend on the processing

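For the 37 named genes, 125 of the 185 results over 5 contrasts passed, of which 104 kept their call in all 26 other settings where they were fitted and 21 lost it in at least 1. The result that changed sign was Il1rl2 in B6 Trib1 minus B6, at -1.49, which was 0.07 (adjusted p = 0.24) without _x_at and _s_at probe sets, where the gene is read by its dimmer probe set. Counts of the 49 genes that passed stayed within 1.5 times the values reported. Leaving out 1 array gave 22 to 39 genes for Ts1Cje minus B6, the 39 without the first Ts1Cje array, and 40 with the third B6 Trib1 array, or the third arrays of both lines, left out as well. No scaling moved the share of higher calls by over 10 percentage points. Replicate numbers do not pair the samples: deviations of same-numbered arrays had correlations from -0.45 to 0.35 over 18 pairs, and 3 of 12 arrays were closest to their own number. With the replicate number as a block, 36 genes passed between B6 Trib1 lines and B6 cells, 27 between Ts1Cje Trib1 lines and Ts1Cje cells, 16 between the lines of both genotypes, 27 between the hematopoietic cells of both genotypes and 26 in the interaction. The shares of all genes that passed in these other settings are not given here, so the counts show only how the calls depend on the setting. Genes near the filter, such as Il2rb in both lines, have differences drawn towards 0 by the offset. Probe sequences and probe-level data were not used, so dim and discordant probe sets could not be examined further.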

Other observations

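Probe sets of 1 gene never passed in opposite directions, but their sizes differed. For Il6st, the 3 kept probe sets gave log2 differences between -3.75 and -0.75 in Ts1Cje Trib1 minus Ts1Cje and between -2.95 and -0.43 in B6 Trib1 minus B6, all of them past the test. The 3 of Il2rb lay between -2.21 and -0.59 in B6 Trib1 minus B6, and between -1.45 and -0.25 in Ts1Cje minus B6, all past the test. The 3 of Il1rn lay between -1.72 and -0.53 in Ts1Cje Trib1 minus Ts1Cje, all past the test, and between -0.94 and -0.11 in B6 Trib1 minus B6, where 2 passed. Those of Il1rap, also 3, lay between -2.11 and -1.07 in Ts1Cje Trib1 minus Ts1Cje and between -1.65 and -0.48 in B6 Trib1 minus B6, all past the test. The 2 of Il18rap lay at 1.03 in Ts1Cje Trib1 minus Ts1Cje and between 1.12 and 1.21 in B6 Trib1 minus B6.

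Eosinophil markers were higher in B6 Trib1 lines than in B6 cells in 3 of 4 measured genes and lower in Ts1Cje Trib1 than in B6 Trib1 lines in 4 of 4. Dendritic cell markers were lower in 5 of 6 measured genes in each line than in its hematopoietic cells.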
